A study of Caenorhabditis elegans with 2 samples.

Results

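The genes described here encode the proteins of the small subunit of the cytosolic ribosome in Caenorhabditis elegans. They were taken as the nuclear protein-coding genes whose symbol begins with rps- and a number, together with ubl-1, and they numbered 32 of 19973 nuclear protein-coding genes. At each of them the binding of ZK185.1, a protein tagged with GFP, was read from chromatin immunoprecipitation and sequencing (ChIP-seq) with an anti-GFP antibody. There was 1 group with 2 biological replicates from separate worm samples. All worms were young adult hermaphrodites of strain OP474, genotype unc-119(tm4063) III; wgIs474, collected whole 56.25 h after synchronization as starved first-stage larvae. The transgene wgIs474 carries ZK185.1 with a GFP-FLAG tag at its C terminus, so binding was that of the tagged copy and was averaged over all tissues of the animal. No second genotype, stage or treatment was measured, and no test was made. The values below are descriptions with the range between replicates.

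The small subunit decodes messenger RNA. It consists of a head and a body with a platform, built of ribosomal RNA and of proteins that are mostly encoded by single genes, and its head swivels against the body as the ribosome moves along the message. Ribosomal protein genes are among the most highly transcribed genes of growing cells, and their products are needed in equal numbers. In C. elegans many messages of such genes receive a spliced leader at their 5′ end, and some of their introns hold genes for small nucleolar RNAs (snoRNAs), which guide the chemical modification of ribosomal RNA.

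ZK185.1 peaks lay upstream of most small subunit genes. For each gene the strongest region was taken whose summit, the point of highest signal, fell within the start window, from 1000 bp upstream to 200 bp downstream of the annotated gene start. Of the 32 genes, 21 (65.6%) had such a summit in the authors' thresholded list of 2053 peaks and are called occupied below. The share over all coding genes was 6.77%. In the longer pooled list, which holds 30000 regions and is mostly background by design, 28 of the 32 genes (87.5%) had a region, against 36.8% of all coding genes. Replicate 1 alone had a region at 27 genes (84.4%), against 36.8%, and replicate 2 at 29 (90.6%), against 37.3%. When each summit counted for its nearest coding start only, the number of occupied genes was 11 and the share of all coding genes was 4.92%.

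The members were also reached early when regions were taken in order of signal. Among the 100 strongest pooled regions 3 members had a summit (9.38%, against 0.431% of coding genes), and among the 500 strongest 12 had one (37.5%, against 2.04%). Among the 1000 strongest there were 17 (53.1%, against 3.88%). The 21 peaks of the occupied genes were distinct and had a median peak height of 153.8. This height, called signal here, is in a unit the authors did not state. Its range was 57.36 to 505.9, and 17 of the 21 lay above 93.74, the median of the whole thresholded list. Occupied coding genes outside both ribosomal subunits had a median of 105.4 (1300 genes), and large subunit genes had one of 123.0 (31 occupied of 54). Large subunit genes were taken by symbol throughout, as rpl-, rla- or rpa- with a number, and ubq-2. Of these, rpa-1, rpa-2 and rpa-4 are named for replication protein A and not for a ribosomal protein. They remain in all counts, shares and medians given for large subunit genes. Only rpa-2 among them was occupied (107.7 at -749 bp).

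**Figure D1:**
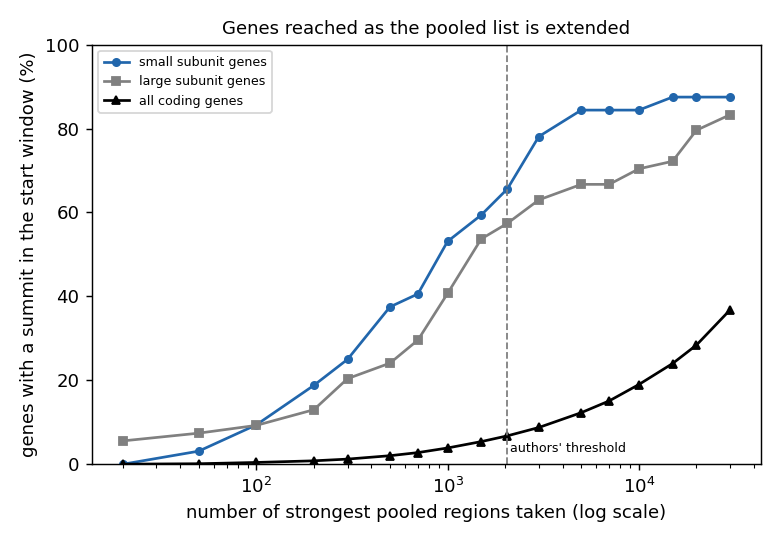
Share of genes with a summit in the start window (percent) against the number of strongest pooled regions taken (log scale). Groups are 32 small subunit genes, 54 large subunit genes by symbol (with rpa-1, rpa-2 and rpa-4) and all 19973 coding genes. The dashed line marks the authors' threshold at 2053 peaks. At that line the shares are 65.6%, 57.4% and 6.77%, and with all 30000 regions they are 87.5%, 83.3% and 36.8%.

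Genes for both parts of the subunit were occupied. Divided by the place of the protein in ribosome structures of other eukaryotes, 9 of 14 genes for proteins of the head were occupied (64.3%), with a median signal of 210.2, and 12 of 18 for proteins of the body and platform (66.7%), with a median of 143.5. The lowest and highest signals were 69.35 and 431.6 in the head group, and 57.36 and 505.9 in the body group, so their ranges overlapped. Both shares were close to the 65.6% of all members, and the share over all coding genes was 6.77%. This division was chosen after the values were seen.

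Among genes for head proteins the strongest peak was at rps-12, whose protein lies at the outer edge of the head. It spanned chromosome III, 5679014 to 5679270, with a signal of 431.6 and rank 51 in the pooled list, and its summit lay 156 bp upstream of the start. The replicates gave 201.3 and 193.0 (ranks 58 and 65), with summits 3 bp apart, the smallest gap of any member. Next was rps-19, whose human counterpart is mutated in Diamond-Blackfan anaemia, with 380.7 on chromosome I (9625975 to 9626195, distance -284 bp). Replicate 1 had 125.8 there and replicate 2 had 177.9.

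At rps-20, which encodes another head protein, the peak had 255.4 (chromosome I, 14469222 to 14469449, -252 bp), with 117.8 and 108.2 in replicates 1 and 2. The peak of rps-28 (chromosome IV, 1659157 to 1659333) had 233.6 at -457 bp and 78.98 and 142.7 in the replicates. That of rps-10 (chromosome I, 4584835 to 4584976) had 210.2 at -356 bp. Here the replicates differed more than at the other strong peaks, with 34.17 (rank 989) in replicate 1 and 137.5 (rank 148) in replicate 2. At rps-15, near the decoding site, the pooled signal was 177.6 (chromosome I, 8816467 to 8816650, -342 bp) and the replicates had 49.86 and 83.11.

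Lower in the order of head genes came ubl-1, rps-3 and rps-29. The gene ubl-1 encodes a ubiquitin-like part fused to a small subunit protein. Its peak had 108.5 at -192 bp, with 44.38 in replicate 2 and no region in the start window of replicate 1. The gene rps-3, whose protein lines the entry channel for messenger RNA, had 82.60 at -360 bp (chromosome III, 6206378 to 6206469), with 38.76 and 31.41 in the replicates. The weakest occupied head gene was rps-29, with 69.35 at -521 bp (chromosome III, 793621 to 793936). Its signal was 9.530 (rank 7256) in replicate 1 and 37.81 (rank 1487) in replicate 2.

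Among genes for body and platform proteins, rps-1 had the strongest peak of all members. It lay on chromosome III, 4475519 to 4475776, with 505.9 and rank 43, and replicate values of 205.3 and 266.7 (ranks 54 and 42). Its summit was 265 bp upstream of the start in the pooled list and in replicate 1, and 246 bp upstream in replicate 2. The gene rps-23 encodes a protein that helps to form the decoding site, and its peak (chromosome IV, 12391266 to 12391446) had 237.1 at -276 bp, with 69.76 and 135.2 in the replicates. At rps-0, whose human counterpart is also known as the laminin receptor precursor, the peak (chromosome III, 4754274 to 4754454) had 197.7 at -322 bp. With rps-12 and rps-20 it was among the 3 of the 10 strongest that ranked higher in replicate 1 than in replicate 2. The replicate 1 signal here was 85.60 (rank 232) and that of replicate 2 was 56.55 (rank 838).

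At rps-24 the pooled signal was 171.1 (chromosome IV, 385479 to 385692, -310 bp). It was the only member with 2 thresholded summits in its window, and the replicates had their strongest summits at different places, at -293 bp in replicate 1 (54.95) and at -504 bp in replicate 2 (123.1). Further peaks of body genes had signals of 153.8 at rps-4, 150.5 at rps-26, whose protein lies at the messenger RNA exit, 136.4 at rps-13 and 113.8 at rps-11. Those of rps-14, which encodes a platform protein, rps-30, which encodes a protein made as a fusion with a ubiquitin-like part, and rps-9 had 105.1, 97.39 and 84.15. The lowest was rps-8, with 57.36 at -256 bp (chromosome IV, 7313958 to 7314273) and 10.51 and 35.99 in the replicates.

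The line between occupied and unoccupied genes ran through a continuous series of signals. The weakest peak of the thresholded list had 56.97. Just inside were rps-8 (57.36, rank 2030) and rps-29 (69.35, rank 1548). Just outside were rps-17 (56.48, rank 2077) and rps-18 (55.03, rank 2158). Across the line the pooled signal stepped from 57.36 to 56.48. The ranks in replicates 1 and 2 were 6220 and 1613 at rps-8, and 4313 and 3412 at rps-17.

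**Figure D2:**
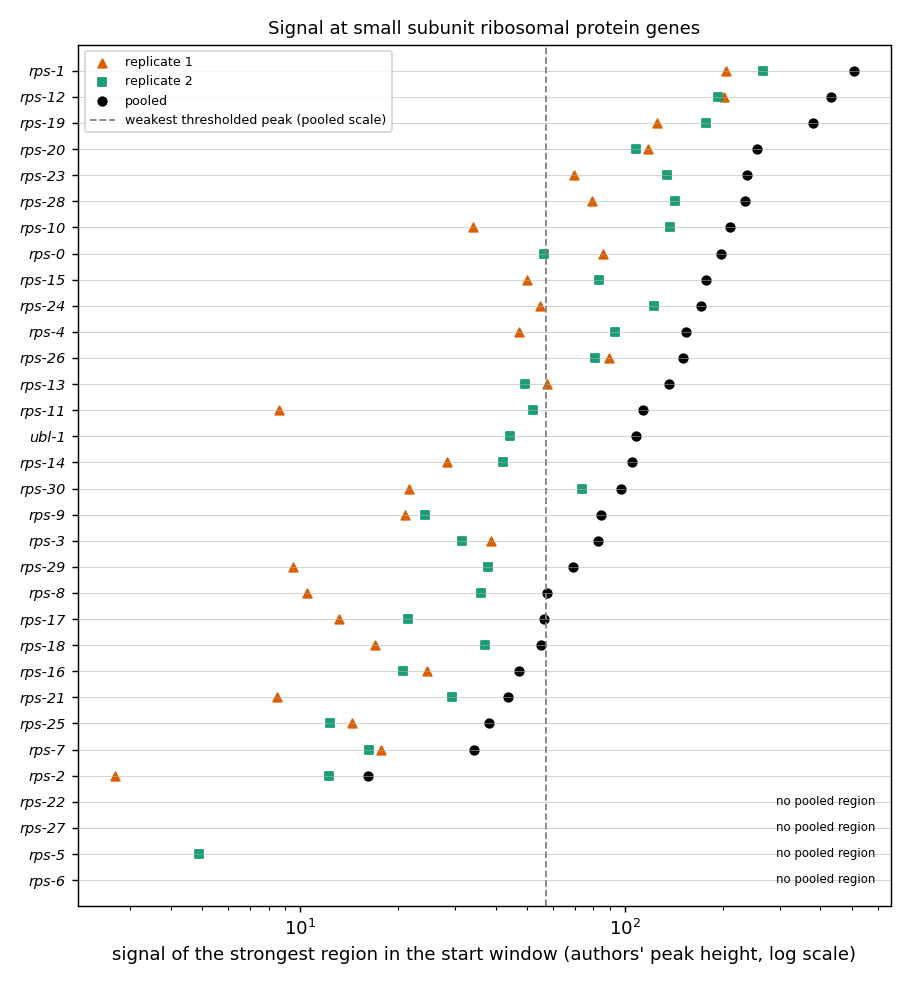
Signal of the strongest region in the start window of each of the 32 genes (authors' peak height, log scale), in the pooled list (circles), replicate 1 (triangles) and replicate 2 (squares), with genes ordered by pooled signal and the weakest thresholded peak (56.97, pooled scale) as a dashed line. Signals fall from 505.9 at rps-1 to 16.22 at rps-2 without a gap at the line, and 4 genes have no pooled region.

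Of the 11 unoccupied genes, 7 had a weaker region in the pooled list. The gene rps-17 had 56.48 at -247 bp (chromosome I, 6220853 to 6221168), with 13.21 and 21.51 in the replicates. At rps-18, which encodes a head protein facing the large subunit, the pooled region (chromosome IV, 14824886 to 14825201) had 55.03 at -635 bp, the farthest upstream of all members. Its replicate summits lay at -665 bp (17.02) and -408 bp (37.12). The pooled summit fell in a non-coding exon of the divergent gene sec-61.A. A nearer pooled summit lay 48 bp downstream of the rps-18 start with 26.67, and this is the value of rps-18 with a window of 500 bp. At rps-16 the region (chromosome V, 15000364 to 15000679) had 47.11, and its summit lay 19 bp downstream of the start within a coding exon. No other member had its strongest pooled summit downstream, and the summits of both replicates, at 13 and 9 bp downstream, were 4 bp apart (24.50 and 20.80). The remaining pooled signals were 43.73 at rps-21, 38.06 at rps-25, 34.42 at rps-7 and 16.22 at rps-2. At rps-2 the rank was 13895, and the replicate 1 signal of 2.699 had rank 27641.

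Genes without any pooled region in the window were rps-5, rps-6, rps-22 and rps-27. The gene rps-6 encodes the ribosomal protein known as the substrate of S6 kinase. Replicate 1 had no region in any of these windows. Replicate 2 had a single weak region at rps-5, with a signal of 4.889 and rank 25785 at -613 bp. Outside the windows, weak regions lay 249 bp downstream of the rps-6 start in replicate 1 (11.79) and 292 bp downstream of the rps-27 start in replicate 2 (9.023). Replicate 1 also had regions 1140 bp downstream of the rps-22 start (22.17) and 995 bp downstream of the rps-27 start (13.53). The nearest pooled summits of rps-5 and rps-6 lay beyond the ends of the genes, 1088 and 1157 bp downstream of the starts (72.74 and 55.69). Around rps-27, near the end of chromosome V, and around rps-22 there was no pooled summit within 10000 bp. The nearest were 50598 and 25332 bp away. Of all coding genes, 23.3% had no pooled summit within 10000 bp, 13.4% had none within 25000 bp and 7.55% had none within 50000 bp. The share of 31-base stretches of the window that recur elsewhere in the genome was 0% at these 4 genes and 19.3% at rps-24, which was occupied.

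The summits lay at similar distances from the starts. All 21 thresholded summits were upstream, between 521 and 156 bp from the start, with a median of -284 bp and quartiles of -342 and -252 bp. Of these, 16 (76.2%) fell between 400 and 200 bp upstream. This interval was not planned and encloses the members' own quartiles, so their share in it depends in part on its choice. Large subunit genes had nearly the same placement, with a median of -303 bp and 23 of 31 summits (74.2%) in that interval. Other occupied coding genes were more widely spread, with a median of -244 bp, quartiles of -437.5 and -132.75 bp and 30.8% of 1300 in the interval. In the replicates the median distance of occupied members was -295 bp and -275 bp.

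**Figure D3:**
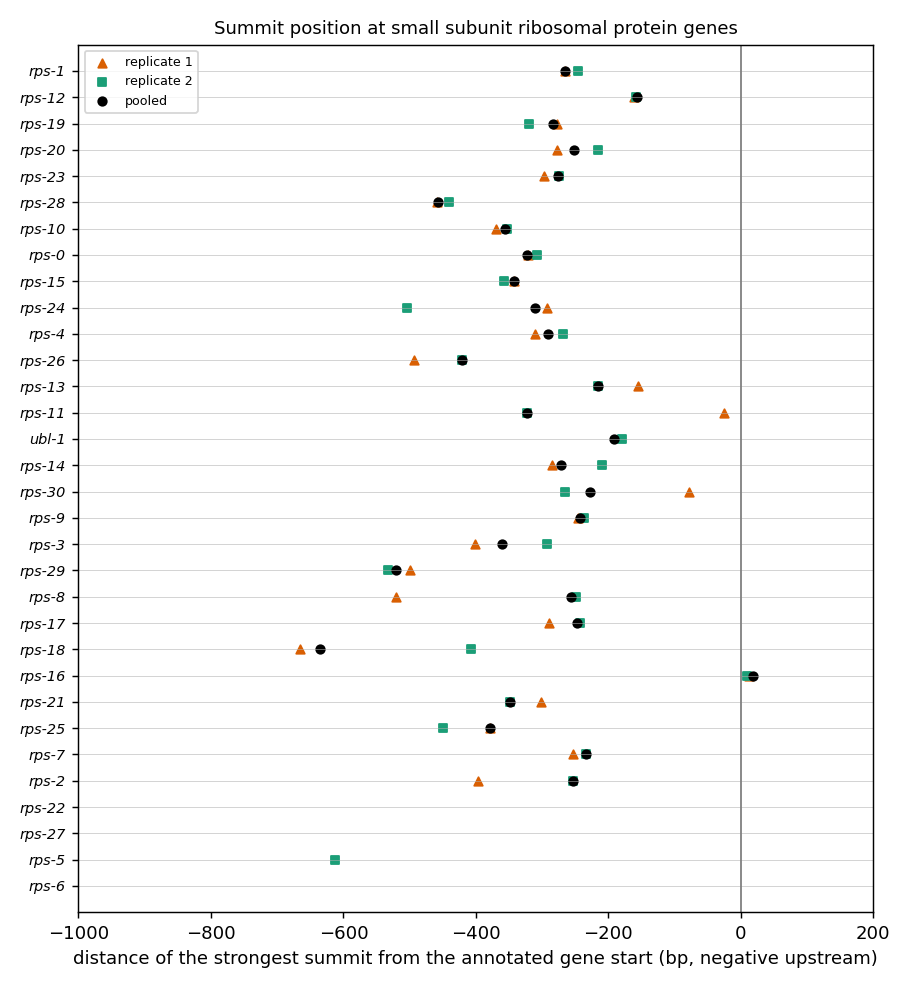
Distance of the strongest summit from the annotated gene start (bp, negative upstream) for each of the 32 genes in the pooled list (circles), replicate 1 (triangles) and replicate 2 (squares), in the same order as the plot of signals. Most points lie between -400 and -200 bp, and rps-16 is the only gene with points downstream of the start. The replicate summits of rps-11, rps-8, rps-18, rps-24 and rps-30 are 187 to 298 bp apart.

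What the annotated start stands for bears on these distances. In 28 of the 32 genes the start directly followed the bases AG, which end a splice acceptor, compared with 27.6% of all coding genes, and in 15 it followed TTTCAG, compared with 12.3%. The exceptions were rps-22, rps-24, rps-27 and ubl-1. Where a message is trans-spliced the annotated start is the acceptor and not the site where transcription begins, and the distance to the latter was not measured.

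Both replicates ordered the genes alike. Across the 27 genes with a region in both lists, Spearman's rho of the signals was 0.792 and Pearson's r of their log2 values was 0.808. These points share their libraries, and the values are a description. The summits of the replicates were 3 to 298 bp apart with a median of 47 bp, and 20 of 27 were within 100 bp. Taking from each replicate as many of its strongest regions as the thresholded list holds, 17 members were reached in replicate 1 and 21 in replicate 2. The 16 members reached in both were all occupied in the thresholded list.

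The members stood higher in replicate 2 more often, by rank at 17 of the 27 genes against 10 in replicate 1. The largest gap in rank was at rps-11, with 8.586 (rank 8515) in replicate 1 at -25 bp and 52.03 (rank 955) in replicate 2 at -323 bp, a ratio of ranks of 8.92. With replicate 1 alone rps-8, rps-9, rps-11, rps-29 and ubl-1 were not reached and rps-16 was, which gave 17 occupied genes. With replicate 2 alone rps-9 was not reached and rps-18 was, which gave 21.

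**Figure D4:**
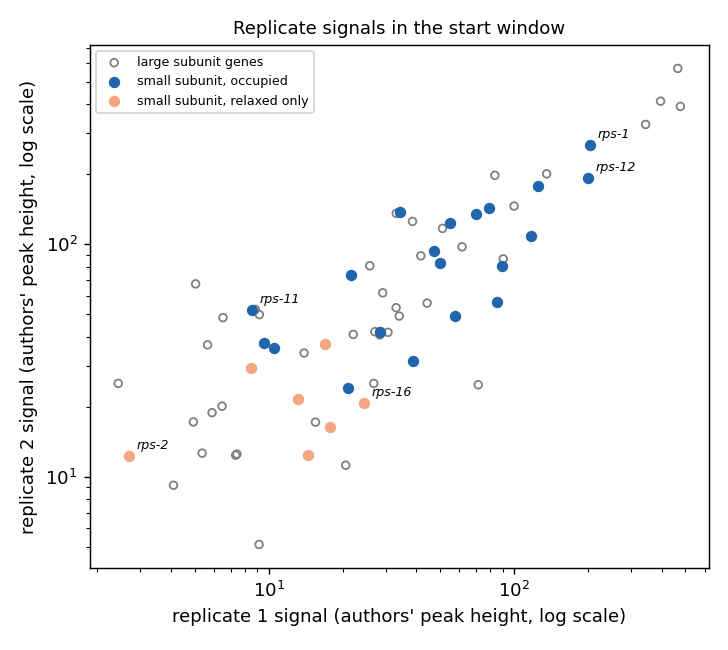
Signal of the strongest region in the start window in replicate 1 (x axis) and replicate 2 (y axis), in the authors' peak height on log scales; filled points are the 27 small subunit genes listed in both replicates and open points are large subunit genes. The points rise together (Spearman's rho 0.792 over the filled points), and rps-11 lies to the left with 8.586 in replicate 1 and 52.03 in replicate 2.

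Most occupied genes had a divergent neighbour, and where the peak lay in the window of both, which gene it belongs to cannot be told apart. The upstream coding neighbour was divergent at 18 of 21 occupied genes and at 5 of the 11 unoccupied ones. Of the unoccupied genes, these were 1 of the 7 with a weaker pooled region and all 4 without one. Divergent neighbours were present at 45.4% of all coding genes, and 9.57% of those genes were occupied, against 4.44% of genes with a same-strand neighbour. Large subunit genes went the other way, with 19 of 36 occupied beside a divergent neighbour and 12 of 18 beside a same-strand one. At 16 of the 21 occupied genes the summit also fell in the start window of another coding gene, and at 10 of these the other start was nearer. The peak of rps-26 lay 36 bp from the start of tmem-107 and 421 bp from that of rps-26. The peak of rps-0 lay 51 bp upstream of rbg-3, and that of rps-29 lay 46 bp upstream of snt-2. For rps-12 and ska-3 the distances were 156 and 137 bp, in a gap of 292 bp between the genes. In contrast, the peak of rps-1 was nearer to rps-1 (265 bp) than to ifet-1 (503 bp).

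Some peaks lay between a small subunit gene and a large subunit gene. The summit between rps-10 and rpl-24.1 lay 356 bp before the start of rps-10 and 254 bp before that of rpl-24.1. That between rps-30 and rpl-39 was at 227 and 272 bp, and that between rps-14 and rpl-36 was at 271 and 392 bp. Each of these pairs was thus counted in both subunits through a single peak.

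No member with a coding gene on its own strand ending within 500 bp upstream was occupied. There were 4 such genes, rps-2, rps-7, rps-16 and rps-17, and the remaining 28 included all 21 occupied ones. Over all coding genes the shares were 5.68% with such a neighbour and 7.01% without. The 5 large subunit genes of this kind were not occupied either. The gene upstream of rps-16, with a gap of 109 bp, was fib-1, which encodes fibrillarin, a methyltransferase of ribosomal RNA. A thresholded peak of 121.6 lay 67 bp upstream of the fib-1 start, and with a window of 2000 bp this peak was counted for rps-16. The 3 occupied genes with a same-strand neighbour were rps-4, rps-8 and rps-11, with gaps of 532, 510 and 937 bp.

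The members that host snoRNA genes were all occupied. These were rps-4, rps-12, rps-13, rps-23, rps-29 and ubl-1, which hold 9 snoRNA genes in all, and none of the 11 unoccupied genes held any. Over all coding genes, 20.3% of 192 with a snoRNA gene inside were occupied, and among large subunit genes 5 of 8. The nearest of these snoRNA starts was that of F54E7.10 in rps-12, 236 bp downstream of the summit. By chromosome, 5 of 8 members were occupied on I, 1 of 1 on II, 8 of 10 on III, 6 of 10 on IV and 1 of 3 on V, and X held no member. The occupied shares of all coding genes were 8.06%, 6.67%, 9.47%, 6.43% and 5.05% on these 5 chromosomes. The summits of 18 occupied genes were intergenic and those of rps-1, rps-10 and rps-30 lay in exons of annotated non-coding RNA genes.

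The summits also shared short sequences. Bases within 50 bp of the 21 summits were searched on both strands for all words of 8 bases, and those present at 4 or more of the 21 were joined into sets where they overlapped by at least 5 bases. This rule was chosen after the sequences were seen, and since it picked the words from these peaks, their number at the members is a description. Set 1 holds AAACGAGT, AACGAGTG and ACACTCGT, set 2 holds GCAGCCAA and GCTGCGTA, which overlap on opposite strands, and set 3 holds CGAGACCC and GCGAGACC.

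Set 2 was the most frequent at the members, and the following sequences show it in its settings. Each is the 101 bases centred on the pooled summit on build ce11, read 5′ to 3′ on the strand of the small subunit gene, with words of the 3 sets in capitals.
rps-3, chrIII:6206393-6206493, plus strand: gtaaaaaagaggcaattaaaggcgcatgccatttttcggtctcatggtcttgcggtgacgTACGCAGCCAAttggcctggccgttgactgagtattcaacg
rps-14, chrIII:7179809-7179909, minus strand: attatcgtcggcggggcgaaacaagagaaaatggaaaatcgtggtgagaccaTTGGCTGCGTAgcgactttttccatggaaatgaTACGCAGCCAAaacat
rps-0, chrIII:4754323-4754423, minus strand: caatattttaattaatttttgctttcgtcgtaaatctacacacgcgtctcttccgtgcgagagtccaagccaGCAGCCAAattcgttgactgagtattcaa
rps-24, chrIV:385527-385627, plus strand: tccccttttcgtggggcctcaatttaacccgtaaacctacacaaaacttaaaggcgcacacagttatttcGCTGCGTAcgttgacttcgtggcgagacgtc
rps-30, chrV:7776301-7776401, plus strand: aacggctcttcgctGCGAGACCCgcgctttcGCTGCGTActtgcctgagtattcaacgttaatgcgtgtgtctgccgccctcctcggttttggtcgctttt
At rps-14 the set occurs on both strands, and at rps-30 it is joined by set 3.

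Sets 1 and 3 are shown at a pair of summits each, in the same layout. The peaks at rps-23 and rps-13 had pooled signals of 237.1 and 136.4 and hold set 1, and those at rps-11 and rps-8 had 113.8 and 57.36 and hold set 3.
rps-23, chrIV:12391279-12391379, minus strand: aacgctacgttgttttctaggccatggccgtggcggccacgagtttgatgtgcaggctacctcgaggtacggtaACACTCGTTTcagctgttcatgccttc
rps-13, chrIII:6375163-6375263, minus strand: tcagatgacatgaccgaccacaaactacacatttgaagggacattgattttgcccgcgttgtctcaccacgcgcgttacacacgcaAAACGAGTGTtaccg
rps-11, chrIV:11602269-11602369, plus strand: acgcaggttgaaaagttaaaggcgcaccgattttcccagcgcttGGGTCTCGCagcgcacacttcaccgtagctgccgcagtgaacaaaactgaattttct
rps-8, chrIV:7314066-7314166, minus strand: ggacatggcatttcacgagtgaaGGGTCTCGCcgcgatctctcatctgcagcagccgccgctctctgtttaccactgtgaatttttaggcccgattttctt

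Strong peaks were also found without these words. The summits of rps-1 and rps-12, the highest and the next highest of all members, hold none of the 3 sets. They are shown with the corresponding bases of rps-27 and rps-5, which had no pooled region and were therefore centred 284 bp upstream of the start, the median distance of the occupied genes.
rps-1, chrIII:4475603-4475703, plus strand: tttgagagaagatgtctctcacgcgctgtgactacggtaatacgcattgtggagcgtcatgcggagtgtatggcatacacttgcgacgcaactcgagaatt
rps-12, chrIII:5679092-5679192, plus strand: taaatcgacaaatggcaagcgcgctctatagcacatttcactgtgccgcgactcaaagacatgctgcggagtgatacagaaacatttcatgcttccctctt
rps-27, chrV:104311-104411, minus strand: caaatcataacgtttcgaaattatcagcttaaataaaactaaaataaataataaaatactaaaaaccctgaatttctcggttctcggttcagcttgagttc
rps-5, chrIV:11111279-11111379, minus strand: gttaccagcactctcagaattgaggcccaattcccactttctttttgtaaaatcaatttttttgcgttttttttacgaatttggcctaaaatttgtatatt

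The 4 genes without a pooled region were not uniform in the 101 bases centred at that distance. Their GC content was 28.7% at rps-27, 31.7% at rps-5, 33.7% at rps-22 and 55.4% at rps-6, and rps-6 held a word of set 3 there while the other 3 held none.

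Set 2 lay within 50 bp of the summit at 7 of 21 occupied members (33.3%), namely rps-0, rps-3, rps-10, rps-14, rps-19, rps-24 and rps-30. It was present at 2 of 28 large subunit peaks not shared with a member (7.14%) and at 1.26% of 950 other thresholded peaks in coding start windows. Set 1 was present at 4 members (19.0%), rps-10, rps-13, rps-23 and rps-29, at 8 large subunit peaks (28.6%) and at 1.47% of other peaks. Set 3 was present at 4 members (19.0%), rps-8, rps-11, rps-29 and rps-30, at 9 large subunit peaks (32.1%) and at 5.79% of other peaks. At least 1 set was present at 12 of the 21 members, and 9 had none, which were rps-1, rps-4, rps-9, rps-12, rps-15, rps-20, rps-26, rps-28 and ubl-1.

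The same words were found upstream of unoccupied members as well. In the 500 bp before the start, at least 1 set was present in 19 of the 32 genes (59.4%), in 29 of 54 large subunit genes (53.7%) and in 7.83% of other coding genes. Among the latter the share was 16.2% of 1300 occupied genes and 7.24% of those not occupied. Sets 1, 2 and 3 were present there at 4, 7 and 4 of the 21 occupied genes. They were present at 2, 1 and 3 of the 7 with only a weaker pooled region and at 1 each of the 4 with none. No set was present at 8 of the 21, at 4 of the 7 and at 1 of the 4. The words were picked near the summits of the occupied members, which mostly lie within these 500 bp. The members' share upstream therefore follows in part from that choice. A match of letters is not a binding site, and whether ZK185.1 contacts these words was not tested.

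**Figure D5:**
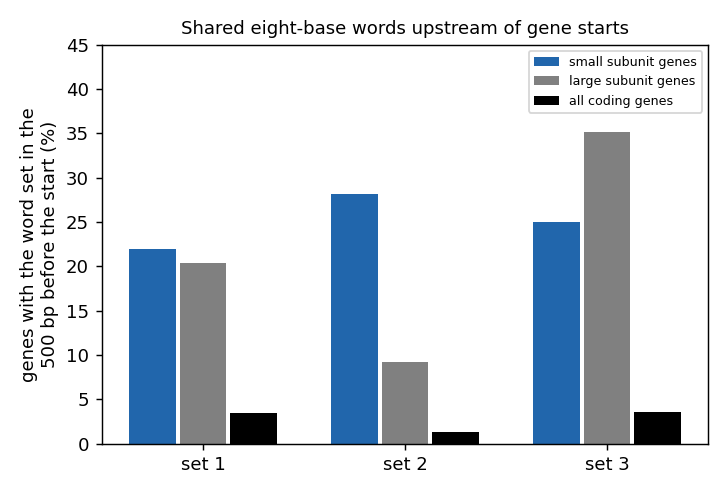
Share of genes (percent) with at least 1 word of each set in the 500 bp before the start. Groups are 32 small subunit genes, 54 large subunit genes by symbol (with rpa-1, rpa-2 and rpa-4) and all 19973 coding genes. Set 1 is at 21.9%, 20.4% and 3.42%, set 2 at 28.1%, 9.26% and 1.32%, and set 3 at 8 of 32 genes, 35.2% and 3.58%. The words were picked from peaks of occupied small subunit genes, so the shares of that group follow in part from the choice.

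Words of 6 bases were searched as well. The 5 with the largest difference in share between the members and other start-window peaks were taken. Their excess at the members follows from that choice and is a description. ACCGTA was at 8 of the 21 summits and at 57 of 950 other peaks. CGCAGC was at 8 and at 59 of 950, and TACGCA was at 8 and at 75 of 950. The word CAGCCA was at 7 (33.3%, against 4.21%) and ACTCAG at 6 (28.6%, against 1.68%). In large subunit peaks ACCGTA had 39.3%. Of 6 further words searched, the TATA word TATAAA was at no member summit (4.11% of other peaks), the E-box CACGTG at 1 (3.89%), CCGCCC at 2 (6.74%), GAGAGA at 2 (20.5%), the splice acceptor word TTTCAG at 1 (7.16%) and CTGCGTC at none (10.4%). The bases around the member summits had a median GC content of 49.5% (range 40.6 to 61.4), against 46.5% at the other peaks, and the whole 500 bp upstream of the occupied genes had 34.0%, against 33.8% over all coding genes.

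Other genes of ribosome production and growth control were occupied at smaller shares. Ribosome biogenesis genes were occupied at 11 of 33 (33.3%, 6.77% over all coding genes), led by pro-1 (231.5), nol-56 (161.5), rbd-1 (141.0) and fib-1 (121.6). Of 9 genes of TOR and S6 kinase signalling, which controls ribosome synthesis by nutrients, 3 were occupied, rict-1 (240.2), rheb-1 (184.1) and ragc-1 (81.21), while let-363, the TOR kinase itself, had no pooled region and rsks-1, the S6 kinase, had only a weaker one (19.35). Mitochondrial small subunit genes were occupied at 5 of 29 (17.2%), with mrps-35 (190.7) and mrps-7 (156.9) the highest. The gene rack-1, which encodes a protein bound to the head of the small subunit, was not occupied. Its pooled region had 40.54 at -229 bp, with 14.06 and 26.70 in the replicates.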

How the data were processed

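ChIP-seq for tagged ZK185.1 was measured in 2 biological replicates of 1 group. Per the manifests deposited with each library, the authors called relaxed regions per replicate and on pooled reads, against a control alignment, and derived the optimal thresholded list by the irreproducible discovery rate. Aligner, peak caller, settings and threshold were not given in the sources used here. A signal column deposited by the authors is a peak height of unstated unit, and it was ranked and compared within a list only. The deposited −log10 q-value column was used in 1 alternative ranking. Depth is unknown from these lists. The control library, signal tracks and lists on the ce10 build were not analysed here.

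All 2053 thresholded peaks were the 2053 strongest pooled regions. Coordinates are 1-based on ce11, and genes came from Ensembl release 115 on the same build (WBcel235). Sequences were read from the RefSeq genome of that build. Python 3.11.15, numpy 2.4.6, pandas 2.3.3 and scipy 1.17.1 were used, and the window assignment was tested on simulated regions. Columns of other samples left unused numbered 0. Genes given with full values were the 10 strongest and 3 weakest occupied members, the 3 strongest unoccupied ones, all without a pooled region, and any whose replicate ranks differed over 10 times (none did). Other values named were chosen after they were seen. The members and lists were chosen with earlier results of these data known.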

Additional observations from a re-analysis of the deposited data

How the results depend on the processing

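The number of occupied genes was 21 and lay between 17 and 22 under every alternative but 1, the count for the nearest coding start only, which gave 11. Leaving out a replicate gave 17 to 21. The 500 bp window lost rps-29, and ranking by the q-value column gave 19, with rps-17 and rps-18 gained and rps-10, rps-20, rps-23 and rps-28 lost. The median distance stayed between -293 and -271 bp under all alternatives. The median signal of 153.8 moved to 113.8 with the nearest start only, to 177.6 with the 1000 strongest peaks and to 113.8 with the q-value ranking. Without replicate 1 or 2 it was 57.72 to 80.67, on the scale of a single replicate. The share of all coding genes fell to 3.88% with the 1000 strongest peaks and was 4.92% to 9.00% otherwise. No paired analysis was possible because there was only 1 group. Depth is unknown, so absence of a region is not shown to be absence of binding.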
